A study of Schizosaccharomyces pombe with 72 samples.

Results

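The heterochromatin and RNA interference factors of fission yeast were followed here as 10 genes, swi6, chp1, chp2, clr3, clr4, ago1, dcr1, rdp1, tas3 and epe1, taken by their symbols from a table of 7014 genes. RNA-sequencing counts were available for 72 libraries, 12 in each of 6 growth conditions, from 4 strains with 3 biological replicates each. In G1_36.5, strains 82, 83, 84 and 85, which carry the thermosensitive cdc10-129 allele, were arrested in G1 at 36.5°C. Strains 86, 92, 93 and 97 made up the other conditions. V36.5 cells divided in YES, a rich medium, and had gone through a doubling after a shift to 36.5°C, and V25 cells divided in YES at 25°C. T0-N cells had grown in the synthetic medium EMM2 at 25°C and were then kept for 24 hr in EMM2 lacking a nitrogen source. T4D36.5 and T4D25 cells came from the same cultures after 4 further days without nitrogen at 36.5 or 25°C. No mating partner was present, so starved cells could enter quiescence but not meiosis. The study used wild-type, mis4-G1487D, mip1-R401G and double mutant strains, affecting the cohesin loader Mis4 and the TORC1 subunit Mip1. The labels do not pair these genotypes with strain numbers, so strains are compared by number only, and growth conditions are compared as averages over the 4 strains.

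Heterochromatin in fission yeast silences repeats at centromeres, the mating-type region and chromosome ends. Clr4 methylates histone H3, and the chromodomain proteins Swi6, Chp1 and Chp2 bind that mark. Chp1, Tas3 and Ago1 form the RITS complex, which small interfering RNAs guide to nascent repeat transcripts. Rdp1 makes these transcripts double-stranded and Dcr1 cuts them into small RNAs. Clr3 is the histone deacetylase of the SHREC complex, which Chp2 helps to bring to chromatin, and Epe1, a protein with a JmjC domain, acts against the spread of heterochromatin.

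In the ASM294v2 genome, swi6 (SPAC664.01c, 1702406 to 1704073), chp1 (SPAC18G6.02c, 2210810 to 2214664) and rdp1 (SPAC6F12.09, 1324591 to 1329061) lie on chromosome I. Chromosome II holds chp2 (SPBC16C6.10, 4349487 to 4351244), clr3 (SPBC800.03, 254715 to 257138), clr4 (SPBC428.08c, 453996 to 458487) and tas3 (SPBC83.03c, 1514006 to 1516211). Chromosome III holds ago1 (SPCC736.11, 334103 to 337070), dcr1 (SPCC188.13c, 1504949 to 1510574) and epe1 (SPCC622.16c, 1431048 to 1435036). No member overlapped another gene on its own strand, and 5 overlapped a gene on the opposite strand. All of the exonic length of clr3 lay under the non-coding RNA clr3-antisense-1, 51.6% of that of clr4 under meu6, 48.5% of that of epe1 under epe1-antisense-1, 32.7% of that of dcr1 under spn6 and 1.00% of that of rdp1 under exo84. Over the 72 libraries clr3 had a median of 117.6 CPM and clr3-antisense-1 of 0.906 CPM. CPM is counts scaled to the usual common library total after correction for composition.

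Each library held 1173880 to 7664476 counts on genes (median 4021412), and the 10 members had between 16 (chp2) and 1427 (clr3) counts in every library. All 10 passed the filter on low counts. The growth states were checked on marker genes. In T0-N against V25, 3 of 4 nitrogen starvation markers were higher, among them mei2 with a log2 fold change of 7.01, and fnx1 was not. In V36.5 against V25 all 3 heat markers were higher, hsp16 by 4.19, and in G1_36.5 against V36.5 cdc22, cdc18 and cig2, targets of the Cdc10 factor MBF, were lower, with log2 fold changes of -2.08, -1.65 and -1.26, while suc22 was higher at 0.17. The starved groups differed in these markers too. In T4D25 against T0-N, 3 of the 4 starvation markers were lower, mei2 at -1.64, and isp6 was higher at 0.59. In T4D36.5 against T4D25 all 4 were lower, with a median of -1.13 and mei2 at -1.82, while hsp16 was higher at 2.15, hsp9 higher at 0.34 and hsp104 lower at -0.26, the calls of hsp9 and hsp104 being lost in 4 and 5 alternatives.

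Levels differed widely among the members. Per kb of exonic length, swi6 was the most abundant in G1_36.5, V36.5, V25 and T0-N, with a median of 84.4 CPM per kb in V25, above 80.9% of all genes. In T4D25 the first place went to ago1, at 51.5 CPM per kb, and in T4D36.5 to clr3, at 52.7 CPM per kb. tas3 came last in all 6 conditions, between 6.28 and 10.6 CPM per kb. swi6 and ago1 were nearly level in T0-N, at 45.8 and 45.6 CPM per kb, whereas in V25 ago1 had 25.2 CPM per kb.

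The first comparison asked how the members changed in cells that left growth for nitrogen starvation. Of the 10 members, 5 fell and 1 rose in T0-N, against a background of 82.1% of all genes called in either direction (44.8% higher and 37.3% lower), so the share of members called was below that of all genes. The ranges of 3 members did not overlap, against 41.7% of all genes. The median log2 fold change was -0.09 over the members and 0.12 over all genes. In bulk RNA, fewer cells with a transcript and less of it per cell cannot be told apart, and the medium differed as well, EMM2 in T0-N and YES in V25.

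Among the proteins that bind the methylated histone, swi6 had a lowest, median and highest level of 59.99, 76.4 and 103 CPM in the 12 T0-N libraries, against 110.4, 141 and 162 CPM in V25. The ranges did not overlap, and the log2 fold change was -0.84 (standard error, SE, 0.0745, adjusted p = 2.41e-14), from -0.92 to -0.78 in the 4 strains. Changes given for a strain or a replicate number are differences of mean log2 CPM, so the fitted change need not lie between them. chp1 had 34.3, 43.3 and 58.6 CPM in T0-N, against 44.98, 68.7 and 93.7 CPM in V25. It fell by 0.60 on the log2 scale (SE 0.0834, adjusted p = 9.26e-09), with changes of -0.31 in strain 97, -0.79 in 93, -0.96 in 92 and -0.24 in 86. Within replicate numbers the change of chp1 ranged from -0.79 to -0.22. chp2 had a median of 29.1 CPM in T0-N and 26.2 CPM in V25 and did not pass the test (0.16, adjusted p = 0.114), but was called higher with a minimum of 10 counts per library (0.23, 0.0165) and without replicate 1 (0.30, 0.00705).

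The deacetylase gene clr3 had 62.1, 80.0 and 98.2 CPM in T0-N, against 104, 131 and 146 CPM in V25, with no overlap between the groups. Its log2 fold change was -0.62 (SE 0.0823, adjusted p = 2.81e-09). clr4, for the methyltransferase, had medians of 55.1 CPM in T0-N and 55.3 CPM in V25 and was not called (-0.06, adjusted p = 0.608).

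The RITS genes moved in opposite directions. ago1, for the Argonaute protein, had 104, 118 and 130.2 CPM in T0-N, against 58.5, 65.5 and 89.2 CPM in V25. Every T0-N library was above every V25 library, and the log2 fold change was 0.77 (SE 0.0636, adjusted p = 1.54e-15), from 0.74 to 0.85 in the 4 strains. tas3, which links Chp1 to Ago1, had medians of 16.9 CPM in T0-N and 22.4 CPM in V25 and fell by 0.47 (SE 0.15, adjusted p = 0.00433), a call lost without replicate 2 (adjusted p = 0.0975). The genes for the enzymes that make and cut double-stranded RNA were not called, rdp1 at 0.10 (adjusted p = 0.203) and dcr1 at -0.04 (adjusted p = 0.693). With a minimum of 10 counts per library rdp1 was called higher (0.17, 0.0130), and without replicate 3 dcr1 was called lower (-0.18, 0.0292).

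epe1 had 82.4, 98.8 and 125 CPM in T0-N, against 101, 107 and 123 CPM in V25, and the ranges overlapped almost wholly. Its fall of 0.13 passed (SE 0.0570, adjusted p = 0.0391) but was lost without replicate 2 (adjusted p = 0.0956), without replicate 3 (0.249) and with a minimum of 10 counts in every library (0.494). Leaving ribosomal RNA genes out of the scaling moved the median of all genes in T0-N against V25 by -0.11. Relative to the median of all genes the changes were -0.96 for swi6, -0.74 for clr3, -0.72 for chp1, -0.59 for tas3, -0.25 for epe1 and 0.65 for ago1.

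**Figure D1:**
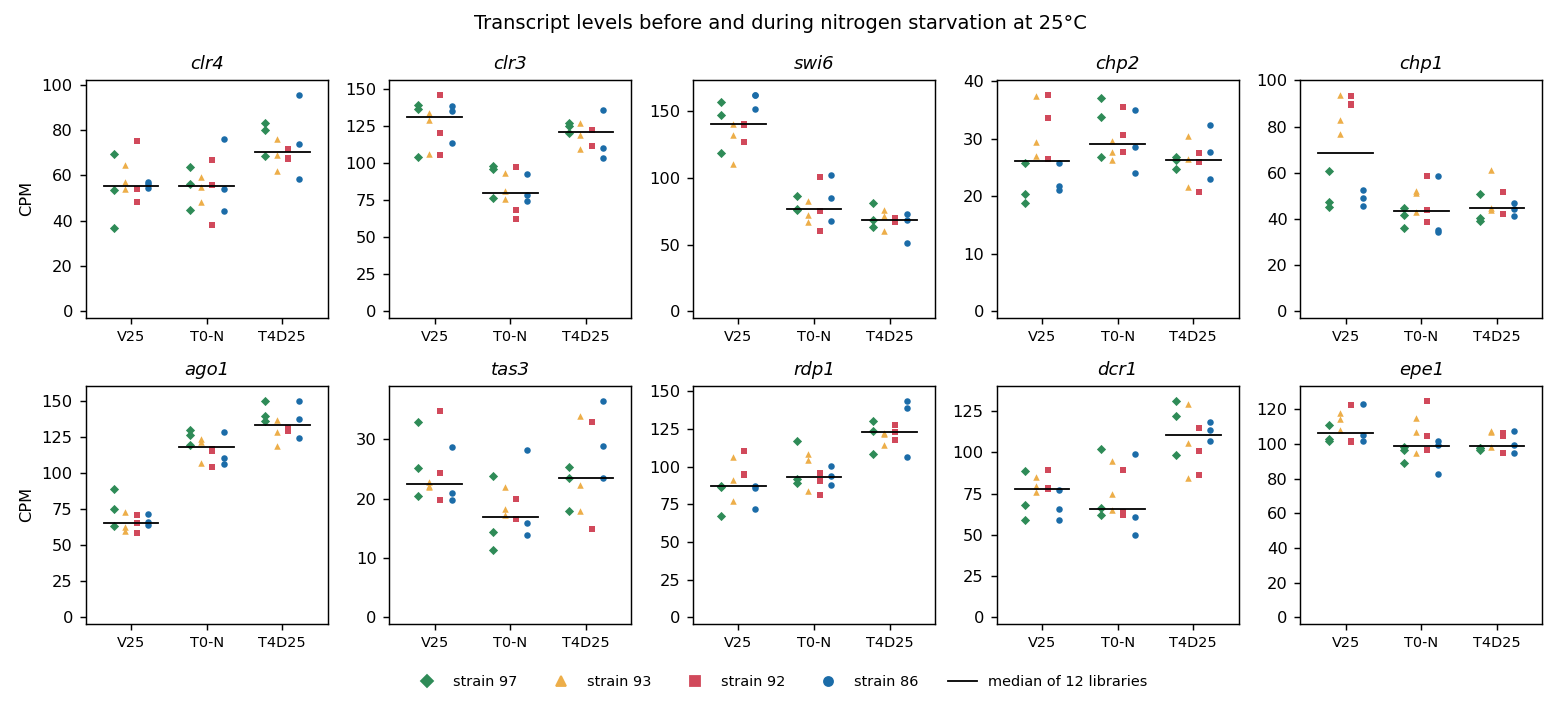
CPM of the 10 members in every library of V25, T0-N and T4D25, in time order, with points for libraries marked by strain and a line at the median of 12 libraries. ago1 has medians of 118 CPM in T0-N and 65.5 CPM in V25 without overlap, while swi6 and clr3 have medians of 76.4 and 80.0 CPM in T0-N, and clr3 is back at 121 CPM in T4D25.

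A further 4 days without nitrogen at 25°C were then compared with the 24 hr cultures. In T4D25 against T0-N, 6 members rose and 2 fell, against 52.3% of all genes called (23.9% higher and 28.5% lower), and the median change was 0.26 over the members and -0.02 over all genes. clr3 had 104, 121 and 136 CPM in T4D25, against 62.1, 80.0 and 98.2 CPM in T0-N. It was the only member whose ranges did not overlap, as for 8.03% of all genes, with a log2 fold change of 0.51 (SE 0.0819, adjusted p = 1.13e-06). dcr1 had 84.6, 110.4 and 131 CPM in T4D25, against 49.98, 65.7 and 102 CPM in T0-N, a rise of 0.55 (SE 0.10, adjusted p = 1.18e-05), from 0.32 to 0.78 within replicate numbers. rdp1 rose by 0.35 (adjusted p = 3.51e-05), with medians of 123 CPM in T4D25 and 93.0 CPM in T0-N.

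The other 5 calls of this contrast were less firm. clr4 rose by 0.39 (adjusted p = 0.00282), tas3 by 0.38 (0.0300) and ago1 by 0.17 (0.0204), while swi6 fell by 0.24 (0.00619) and chp2 by 0.22 (0.0381). All 5 were lost without replicate 2, where 3 of the 10 members passed, and tas3 and swi6 also without replicate 1. The call of chp2 was also lost under DESeq2 (adjusted p = 0.112), with its size factors (0.0803), without ribosomal RNA genes (0.0655), with no filter (0.0585), with a minimum of 10 counts per library (0.0612) and without replicate 3 (0.365). swi6 had 50.8, 68.3 and 81.4 CPM in T4D25, overlapping its range in T0-N. chp1 (0.03, adjusted p = 0.760) and epe1 (-0.02, adjusted p = 0.747) were not called.

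Heat in dividing cells was examined by comparing V36.5 with V25. Of the members, 5 rose and 1 fell, against 63.4% of all genes called (35.4% higher and 28.0% lower), and 3 members had ranges that did not overlap, against 10.9% of all genes. The median change was 0.22 over the members and 0.05 over all genes.

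The genes of the RNA interference enzymes carried the largest changes of the list. ago1 had 102, 127 and 143 CPM in V36.5, against 58.5, 65.5 and 89.2 CPM in V25, a log2 fold change of 0.92 (SE 0.0637, adjusted p = 4.53e-17). rdp1, for the RNA-directed RNA polymerase, had 122, 145 and 192 CPM in V36.5, against 67.5, 87.3 and 111 CPM in V25, a change of 0.81 (SE 0.0695, adjusted p = 5.32e-14). dcr1, for Dicer, had 99.6, 118 and 155 CPM in V36.5, against 58.8, 77.6 and 89.5 CPM in V25, a change of 0.75 (SE 0.101, adjusted p = 1.67e-08). For these 3 genes every V36.5 library was above every V25 library, and all 4 strains moved in the same direction. tas3, the remaining RITS gene beside chp1, was not called (-0.17, adjusted p = 0.338).

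Of the genes for chromatin enzymes, clr4 had 60.9, 87.4 and 107 CPM in V36.5, against 36.6, 55.3 and 75.1 CPM in V25, and rose by 0.64 (SE 0.112, adjusted p = 3.15e-06). clr3 rose by 0.28 (SE 0.0811, adjusted p = 0.00291), a call lost without replicate 1 (adjusted p = 0.0693). swi6 was the only member called lower, with 89.5, 108 and 141 CPM in V36.5 against 110.4, 141 and 162 CPM in V25, a change of -0.32 (SE 0.0737, adjusted p = 0.000192), from -0.46 to -0.29 within replicate numbers. chp1 (-0.05, adjusted p = 0.628), chp2 (0.16, 0.120) and epe1 (-0.05, 0.429) were not called, though chp2 was with a minimum of 10 counts per library (0.22, 0.0294) and epe1 without ribosomal RNA genes (-0.14, 0.0321).

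The same temperatures were compared in quiescent cells as T4D36.5 against T4D25. Here 4 members fell, against 68.8% of all genes called (33.4% lower), and the median change was -0.14 over the members and 0.01 over all genes. epe1 had 53.4, 75.2 and 86.1 CPM in T4D36.5, against 94.7, 98.6 and 107 CPM in T4D25. It was the only member without overlap, as for 15.0% of all genes, with a log2 fold change of -0.42 (SE 0.0585, adjusted p = 2.44e-08), from -0.48 to -0.45 within replicate numbers. tas3 had 7.85, 13.8 and 25.3 CPM in T4D36.5, against 14.9, 23.4 and 36.4 CPM in T4D25, a change of -0.67 (SE 0.159, adjusted p = 0.000242).

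chp2 had 10.5, 16.5 and 27.2 CPM in T4D36.5, against 20.8, 26.3 and 32.4 CPM in T4D25, and fell by 0.52 (SE 0.0992, adjusted p = 9.85e-06). That average hid a spread between strains, with changes of -0.04 in strain 97, -1.05 in 93, -0.84 in 92 and -0.22 in 86. clr4 fell by 0.25 (adjusted p = 0.0467), a call lost under DESeq2 (0.0875), with its size factors (0.0815), with a minimum of 10 counts per library (0.101), without replicate 1 (0.0714) and without replicate 2 (0.391), and with changes from -0.58 to -0.01 within replicate numbers. dcr1 did not pass (-0.21, adjusted p = 0.0578), but did with the replicate number (adjusted p = 0.00335) or the starved culture (0.0109) as a block, with no filter (0.0285), with spike-in RNAs kept (0.0298), without ribosomal RNA genes (0.0408) and without replicate 3 (0.00565). swi6 (0.08), clr3 (0.13), chp1 (0.03), ago1 (-0.06) and rdp1 (-0.02) were not called, with adjusted p from 0.172 upwards, and clr3 was called with a minimum of 10 counts per library (0.17, 0.0401). The fall of the starvation markers stood beside these changes, and its part in them was not tested.

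A test of the difference between both heat contrasts, (T4D36.5 minus T4D25) minus (V36.5 minus V25), was past the threshold for 8 members, 1 higher and 7 lower, against 61.0% of all genes (28.4% higher and 32.6% lower). The difference was -0.98 for ago1 (adjusted p = 3.26e-13), -0.96 for dcr1 (1.40e-07), -0.89 for clr4 (4.93e-06) and -0.83 for rdp1 (5.95e-10), the genes that rose most in dividing cells. It was -0.69 for chp2 (2.54e-05), -0.36 for epe1 (0.000156) and -0.51 for tas3 (0.0406), which was lost under DESeq2 (0.0677), with its size factors (0.0831), without ribosomal RNA genes (0.075) and without any of the 3 replicates. For swi6 it was 0.40 (0.00121), and clr3 (-0.15) and chp1 (0.08) were not called. The quiescent libraries had 4 further days at 36.5°C and the dividing ones a doubling, so duration, medium and growth state cannot be told apart.

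In G1_36.5 against V36.5, strain set, cdc10-129 allele and arrest cannot be told apart. Here 5 members fell and 1 rose, against 68.6% of all genes called (34.1% higher and 34.5% lower), and 9 were called in the fit blocked by replicate number, which added chp1 (-0.15, adjusted p = 0.0499), ago1 (0.12, 0.0374) and dcr1 (-0.13, 0.0302). Without replicate 1 chp1 (-0.24, 0.0109) and ago1 (0.19, 0.0197) were called as well, and ago1 also with a minimum of 10 counts per library (0.21, 0.00665). clr3 had 89.7, 107 and 117 CPM in G1_36.5, against 125, 142 and 187 CPM in V36.5, and fell by 0.50 (SE 0.0684, adjusted p = 1.84e-06) with no overlap, as for 10.9% of all genes. clr4 had 41.5, 58.5 and 68.0 CPM in G1_36.5, against 60.9, 87.4 and 107 CPM in V36.5, and fell by 0.63 (SE 0.0883, adjusted p = 2.60e-06).

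chp2 moved the other way. It had 36.7, 42.7 and 49.6 CPM in G1_36.5, against 22.1, 29.1 and 38.5 CPM in V36.5, and rose by 0.52 (SE 0.0900, adjusted p = 3.01e-05), from 0.32 to 0.78 within replicate numbers. rdp1 (-0.23, adjusted p = 0.00572), swi6 (-0.20, 0.00677) and epe1 (-0.19, 0.00601) fell slightly. The calls were lost without replicate 1 or without 2 for rdp1, without 2 or without 3 for swi6, and without 1 or without 3 for epe1, and for all 3 genes with a minimum of 10 counts per library (0.0854, 0.127 and 0.144). tas3 was not called (0.11, adjusted p = 0.445).

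**Figure D2:**
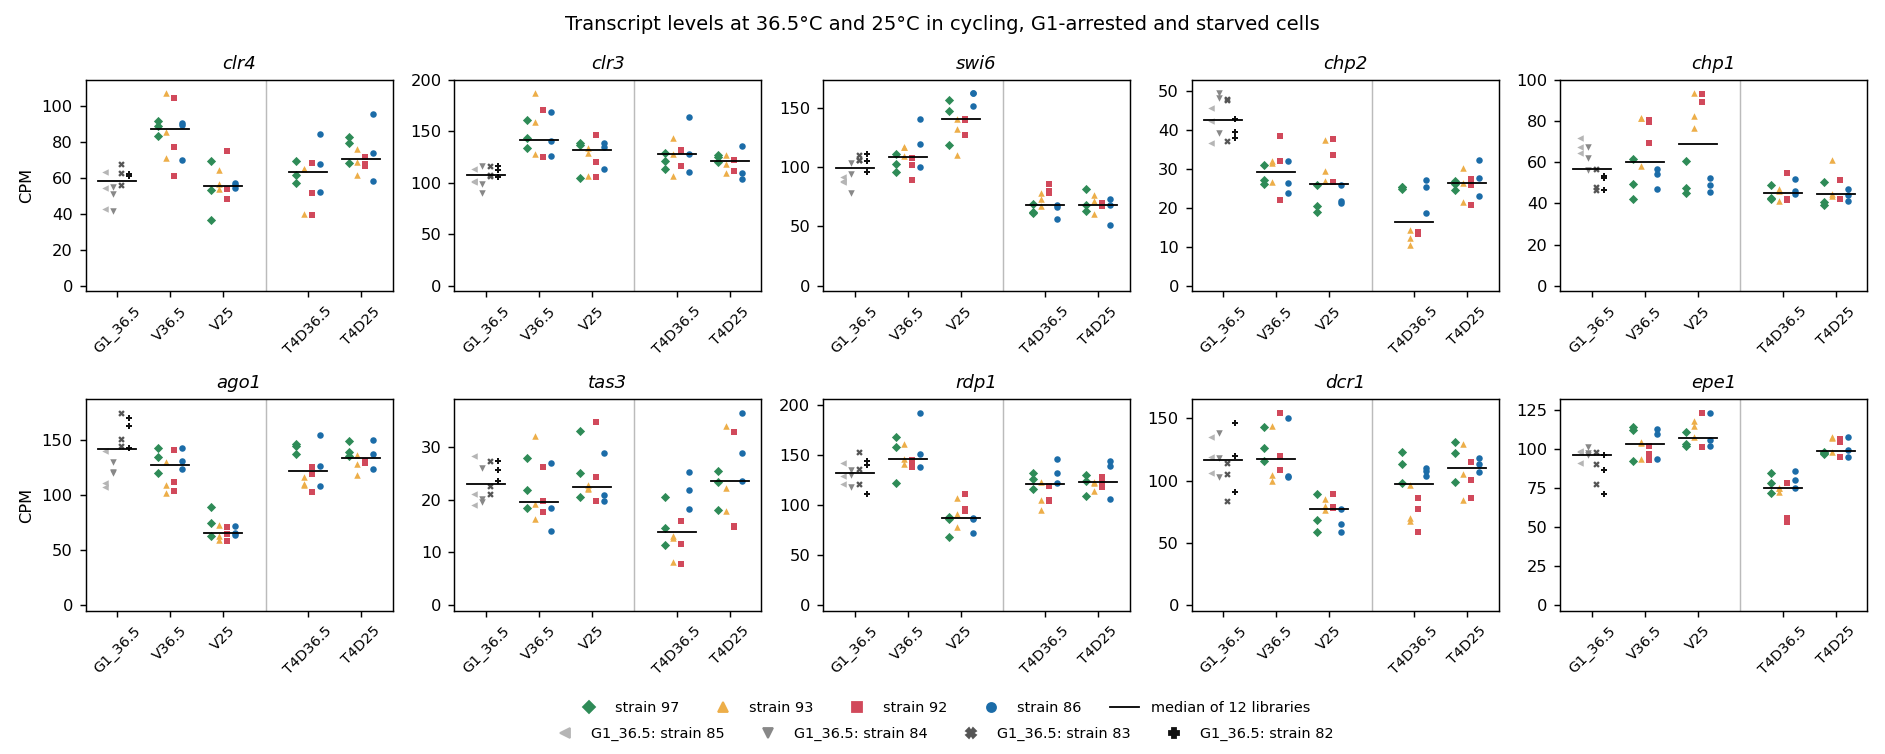
CPM of the 10 members in every library of G1_36.5, V36.5, V25, T4D36.5 and T4D25, with points for libraries marked by strain and a line at the median of 12 libraries. ago1, rdp1 and dcr1 have medians of 127, 145 and 118 CPM in V36.5, above all V25 libraries, whereas in T4D36.5 they have medians of 122, 120.3 and 97.6 CPM, within the range of T4D25.

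**Figure D3:**
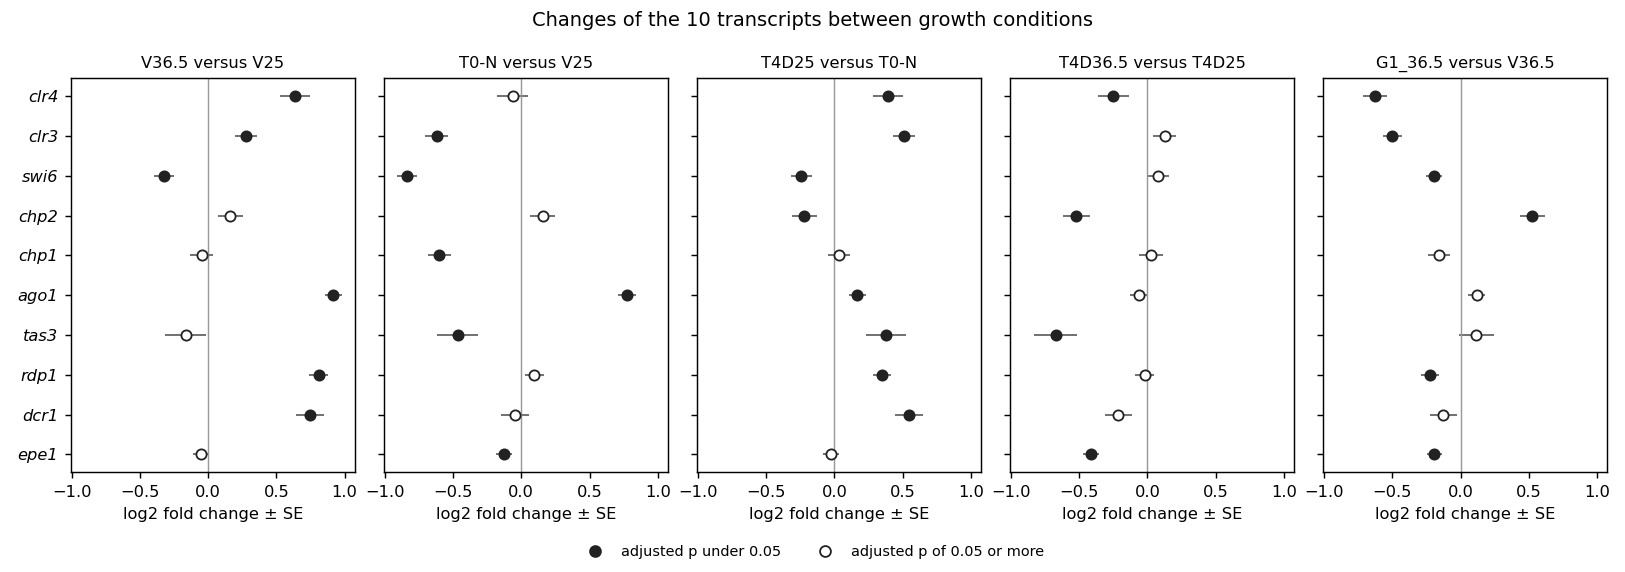
Log2 fold change of each member with its standard error in the 5 growth contrasts, each averaged over the strains, with filled points for an adjusted p below 0.05. ago1 is at 0.92 in V36.5 against V25 and at -0.06 in T4D36.5 against T4D25, and chp2 is at 0.52 in G1_36.5 against V36.5.

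The growth conditions were also put in order of level for each gene. By median CPM, swi6 ran from V25 through V36.5, G1_36.5 and T0-N to T4D25 and T4D36.5, and neighbours differed beyond their pooled SD except V36.5 and G1_36.5, and T4D25 and T4D36.5. ago1 was lowest in V25, and the medians of its other 5 conditions, from 118 to 142 CPM, stood in an order whose neighbours did not differ beyond their SD. chp2 was highest in G1_36.5 and lowest in T4D36.5, and epe1 was lowest in T4D36.5 and next lowest in G1_36.5, both steps beyond the SD. clr3 was lowest in T0-N and clr4 was highest in V36.5, also beyond the SD. No neighbours differed beyond it for tas3 and dcr1, and for chp1 only G1_36.5 over T4D36.5. Of the 50 steps between neighbours over the 10 genes, 17 were larger than the pooled SD, and 1, ago1 in T0-N over V25, had no overlap of libraries.

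Differences among the 4 strains were tested within each growth condition. In V25, chp1 (adjusted p = 0.000308) and chp2 (0.0496) differed among strains, against 19.1% of all genes. The blocked fit added dcr1 (0.0463) and rdp1 (0.0380), with 33.0% of all genes called. chp1 had 47.5, 60.6 and 44.98 CPM in strain 97, 82.6, 93.7 and 76.8 CPM in 93, 89.4, 89.6 and 93.3 CPM in 92, and 52.3, 49.1 and 45.7 CPM in 86. All libraries of strains 92 and 93 were above all those of 86 and 97. The log2 difference was 0.92 for 92 over 86 (adjusted p = 0.000671), 0.79 for 93 over 86 (0.00128), -0.85 for 97 over 92 (0.00104) and -0.73 for 97 over 93 (0.00216), where 16.0%, 17.5%, 17.3% and 18.1% of all genes were called. The last of these was lost without replicate 1 (adjusted p = 0.0594). For chp2, strain 97 had 25.8, 20.5 and 18.8 CPM and strain 92 had 33.7, 37.7 and 26.6 CPM, a difference of -0.64 (adjusted p = 0.0344) that was lost without any of the 3 replicates. So was the test of chp2 among all 4 strains, which also missed the threshold with DESeq2's size factors (0.0533) and with no filter (0.055).

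Heat markers in the same V25 libraries differed between the same strains. hsp16 ranged from 126 to 475 CPM in strain 97, from 4.26 to 6.36 CPM in 93, from 11.05 to 19.7 CPM in 92 and from 199 to 342 CPM in 86. All 3 heat markers were called among strains in V25. Their part in the differences of chp1 and chp2 was not tested.

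In V36.5 no member was called among strains in edgeR's quasi-likelihood test or in DESeq2, with 1 at an unadjusted p below 0.05, against 6.31% of all genes. chp1 passed in edgeR's likelihood ratio test (adjusted p = 0.0395) and in the blocked fit (0.00255, where 17.5% of all genes were called), with means of 51.1 ± 10.02 CPM in strain 97, 73.8 ± 13.4 in 93, 76.6 ± 6.12 in 92 and 52.7 ± 5.06 in 86 (SD, n = 3 each). In T0-N and T4D25 none was called in edgeR's tests or DESeq2, or at an unadjusted p below 0.05, where 0.923% and 1.80% of all genes were called. None was called in their blocked fits either, where 8.17% and 8.27% of all genes were. chp1 in T0-N had means of 40.8 ± 4.36 CPM in strain 97, 48.7 ± 5.05 in 93, 47.0 ± 10.3 in 92 and 42.7 ± 13.7 in 86 (SD, n = 3 each). In G1_36.5, chp1 was called (adjusted p = 0.02, against 10.9% of all genes), a call lost when any replicate number was left out. The blocked fit added ago1 (0.0241), with 27.2% of all genes called. Strain 85 had 67.4, 64.5 and 72.1 CPM, above strain 82 with 53.2, 46.5 and 52.2 CPM (0.47, adjusted p = 0.0250) and strain 83 with 46.6, 57.01 and 47.9 CPM (0.49, adjusted p = 0.0174), pairs in which 7.37% and 8.13% of all genes were called. In those libraries hsp16 ranged from 1206 to 3464 CPM in strain 85, from 3981 to 5867 CPM in 82 and from 4786 to 7465 CPM in 83.

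In T4D36.5, chp2 (adjusted p = 0.00249), dcr1 (0.0269) and tas3 (0.0469) were called among strains, against 25.7% of all genes (39.4% in the blocked fit). Each was lost without replicate 1 and without replicate 2, and tas3 also without replicate 3 (0.0565), with DESeq2's size factors (0.0517) and without ribosomal RNA genes (0.0522). chp2 had 25.4, 25.0 and 25.4 CPM in strain 97, 10.5, 12.3 and 14.3 CPM in 93, 13.7, 13.6 and 13.3 CPM in 92, and 25.5, 27.2 and 18.7 CPM in 86. Strains 92 and 93 were apart from 86 and 97, as they were for chp1 in V25, but for chp2 here with the lower levels. The differences were -0.84 for 92 over 86 (adjusted p = 0.0118), -0.99 for 93 over 86 (0.00561), 0.88 for 97 over 92 (0.00859) and 1.04 for 97 over 93 (0.00432), where 23.0%, 18.2%, 25.7% and 21.3% of all genes were called.

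dcr1 in T4D36.5 had 98.4, 113 and 123 CPM in strain 97, 67.4, 70.2 and 96.8 CPM in 93, 58.9, 86.4 and 77.6 CPM in 92, and 104, 110.2 and 108 CPM in 86. Called pairs were 92 over 86 (-0.54, adjusted p = 0.0356), 97 over 92 (0.57, 0.0259) and 97 over 93 (0.52, 0.0433). tas3 had 8.19, 12.7 and 12.996 CPM in strain 93, 7.85, 11.6 and 15.8 CPM in 92, and 25.3, 18.2 and 21.7 CPM in 86, and differed for 92 over 86 (-0.94, adjusted p = 0.0339) and 93 over 86 (-0.97, 0.0326). With replicate 1 or replicate 2 left out, each of the 9 called pairs in T4D36.5 was lost. Counts on genes there were from 1339415 to 4516495 in strain 97, from 1505944 to 2406167 in 93, from 1173880 to 2592589 in 92 and from 1891082 to 4617602 in 86, and hsp9 ranged from 5621 to 8160 CPM in strain 97, from 10243 to 15034 CPM in 93, from 11032 to 14809 CPM in 92 and from 5403 to 7775 CPM in 86. Of the marker lists, 3 of 4 starvation markers and 1 of 3 heat markers were called among these strains. mei2 ranged from 440.4 to 557 CPM in strain 97, from 68.3 to 90.3 CPM in 93, from 71.7 to 83.3 CPM in 92 and from 214 to 544 CPM in 86. The part of depth and of starvation and heat markers in these differences was not tested.

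Over the 60 member-by-pair tests of each condition, 5 were called in V25, 9 in T4D36.5 and 2 in G1_36.5, against 11.5%, 14.8% and 6.13% of such tests over all genes. In the blocked fits these were 12, 14 and 9, against 19.5%, 23.1% and 15.5% over all genes. V36.5 had 0 in edgeR's quasi-likelihood test and in DESeq2, with 4 at an unadjusted p below 0.05, and 4 with the block (3.17% and, blocked, 9.75% over all genes). T0-N and T4D25 had 0 in both tools and at an unadjusted p below 0.05 (0.38% and 0.838% over all genes), with 0 and 1 under the block (3.89% and 4.35%). The interaction of strain and growth condition was called for chp2 (adjusted p = 0.000649) and chp1 (0.0352), against 24.5% of all genes. That of chp1 was lost without any of the 3 replicates, with DESeq2's size factors (0.0675) and with a minimum of 10 counts per library (0.0565), and that of chp2 without replicate 2 (0.238). The block added swi6 (0.0256), dcr1 (0.00504) and tas3 (0.0109), with 43.4% of all genes called.

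**Figure D4:**
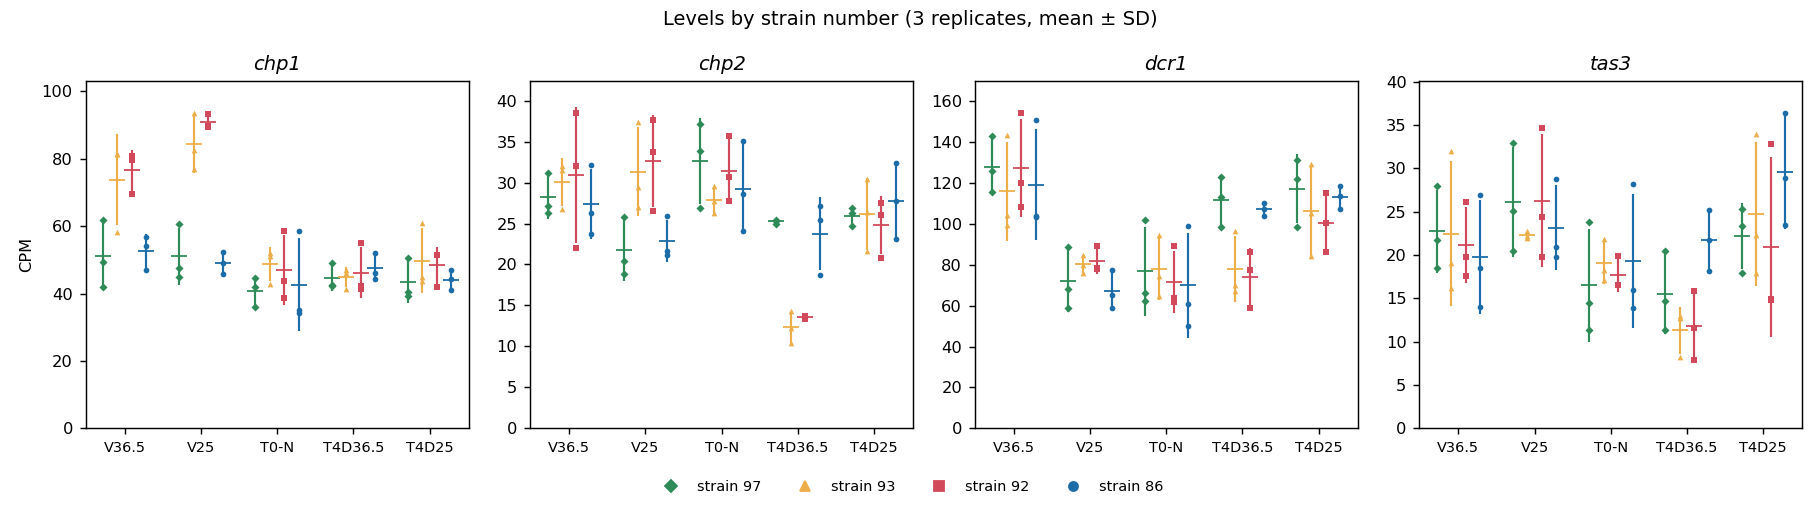
CPM of chp1, chp2, dcr1 and tas3 by strain in V36.5, V25, T0-N, T4D36.5 and T4D25, without G1_36.5. Points are replicates, with a line at the mean of 3 and a bar for the SD. In V25, chp1 means are 84.4 and 90.8 CPM in strains 93 and 92, and 51.0 and 49.0 CPM in 97 and 86. In T4D36.5, chp2 means are 12.3 and 13.6 CPM in strains 93 and 92, and 25.3 and 23.8 CPM in 97 and 86.

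The antisense RNAs of members changed as well. epe1-antisense-1 (SPNCRNA.67, chromosome III, 1431135 to 1433068, plus strand) had 5.43, 11.6 and 22.0 CPM in T4D36.5, against 0.548, 2.53 and 3.71 CPM in T4D25, with no overlap and a log2 fold change of 2.30 (adjusted p = 4.64e-12). In T4D25 against T0-N, where it had 4.27, 7.49 and 11.9 CPM, it fell by 1.61 (adjusted p = 1.37e-07), again with no overlap. In G1_36.5 it had 9.34, 15.2 and 30.9 CPM, against 0.522, 4.68 and 13.5 CPM in V36.5, a change of 1.81 (adjusted p = 4.81e-08). epe1 itself fell in T4D36.5 and G1_36.5, where its antisense RNA rose, but was not called in T4D25, where the antisense RNA fell. The fall of epe1 in G1_36.5 (-0.19) was lost without replicate 1 or 3. In V36.5 against V25 epe1 was not called (-0.05), with antisense medians of 4.68 and 3.19 CPM. The antisense RNA differed among strains in V36.5 (adjusted p = 0.0187) and G1_36.5 (0.0295), where 6.31% and 10.9% of all genes were called.

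In V25, epe1-antisense-1 differed among strains too (adjusted p = 0.00308), with 6.67, 6.65 and 10.98 CPM in strain 97, 0.775, 0 and 1.73 CPM in 93, 1.55, 0.502 and 0 CPM in 92, and 10.1, 4.70 and 4.65 CPM in 86. Strains 93 and 92 had at most 4 counts there, close to the floor of 3 counts taken as the limit of detection, which was 0.586 to 1.68 CPM in V25. Its change in T0-N against V25 was 0.03 in strain 97, 2.54 in 93, 3.15 in 92 and -0.01 in 86, so the average over strains rested on strains 92 and 93. clr3-antisense-1 had at most 21 counts in a library, with a median of 3.02 CPM in T4D36.5 and 0.592 CPM in T4D25 (log2 fold change 2.06, adjusted p = 6.48e-07). This antisense RNA was at or below the floor of 3 counts in 8 of the 12 T4D25 libraries and 3 of the 12 T4D36.5 libraries. clr3 was not called in that contrast.

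**Figure D5:**
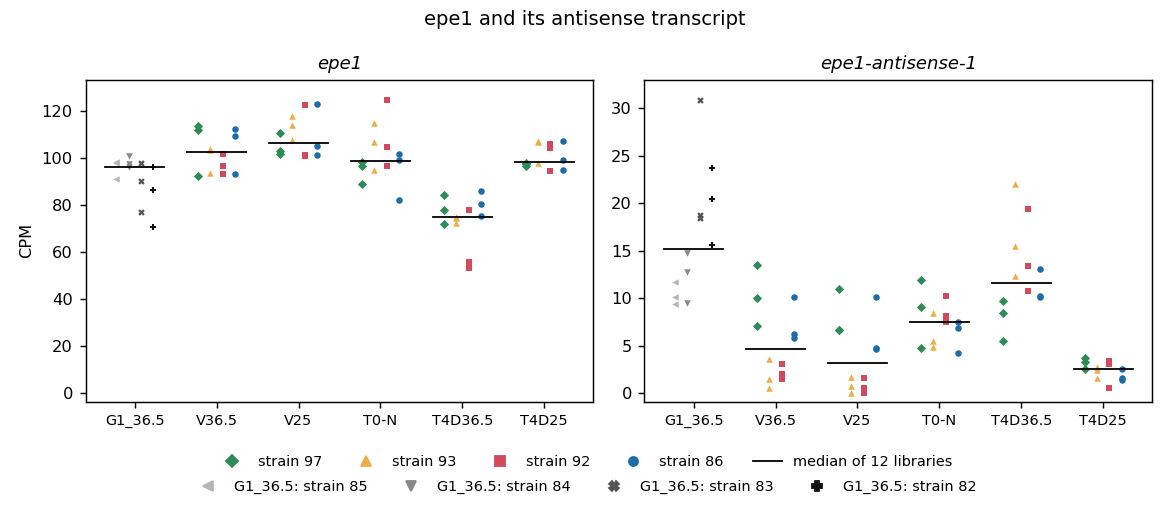
CPM of epe1 and of epe1-antisense-1 in every library of the 6 growth conditions, with points marked by strain and a line at the median of 12 libraries. The antisense RNA has medians of 11.6 CPM in T4D36.5 and 2.53 CPM in T4D25, and epe1 has medians of 75.2 and 98.6 CPM in these conditions.

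Other genes of these pathways were taken from lists and described by their counts. Of 7 other RNA interference factors, all 7 rose in V36.5 against V25, with a median of 0.72, where 35.4% of all genes were called higher and their median was 0.05. All 7 rose in T0-N against V25, with a median of 1.23, where 44.8% of all genes were called higher and their median was 0.12. In T0-N the Argonaute-binding subunit gene arb2 rose by 2.44, with medians of 74.3 CPM in T0-N and 13.4 CPM in V25, the exonuclease gene tri1 by 2.07 and ers1 by 1.70. cid12, whose product works in a complex with Rdp1, rose least, by 0.18. That call and the rise of dsh1 by 0.17 in V36.5 were lost under DESeq2 (adjusted p = 0.1003 and 0.104) and in several other alternatives, and the rise of arb1 by 0.27 in V36.5 was lost without ribosomal RNA genes (0.0637) and without replicate 1 or 2. In T4D36.5 against T4D25, 3 of the 7 fell (arb2 by 1.1, dsh1 by 0.48 and ers1 by 0.20, lost under DESeq2 at an adjusted p of 0.0517), against 33.4% of all genes, and in G1_36.5 against V36.5, 6 rose, against 34.1%. The difference between both heat contrasts was called lower for all 7, against 32.6% of all genes.

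Among genes of CLRC, the complex of Clr4, and of its link to RNA interference, rik1 rose by 0.97 and stc1 by 0.95 in V36.5 against V25. In T0-N against V25, stc1 rose by 1.44 and the cullin gene pcu4, listed as cul4, by 0.21, while rik1 fell by 0.42 and raf2 by 0.30. The other SHREC subunits diverged in T0-N against V25, where clr2 fell by 1.61, with medians of 11.96 CPM in T0-N and 36.2 CPM in V25, while clr1 rose by 0.87 and mit1 by 0.24. Without ribosomal RNA genes in the scaling the rises of pcu4 (adjusted p = 0.169) and mit1 (0.0895) in T0-N were lost. Of 4 other histone deacetylase genes, 3 fell in T0-N against V25, against 37.3% of all genes, hst4 most, by 0.87. Without replicate 2 the falls of clr6 (adjusted p = 0.110) and hst2 (0.247) were lost. In V36.5 sir2 fell by 0.58.

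A list of 10 genes was named anti-silencing and boundary factors, but it mixes roles. Not all of its genes, fft3, abo1 and lem2 included, are clear anti-silencing factors, so its counts do not describe such factors as a group. Of the 10, 8 fell and 2 rose in T0-N against V25, with a median of -0.54, where 37.3% of all genes were called lower and 44.8% higher. The chromatin remodeller gene fft3 fell by 1.46, abo1 by 0.88 and the nuclear envelope gene lem2 by 0.73, and the acetyltransferase gene mst2 rose by 0.68. In T4D36.5 against T4D25, 7 rose and 2 fell, against 35.4% and 33.4% of all genes, and cdt2, for an adaptor of the Ddb1 ubiquitin ligase, rose by 1.25, with medians of 52.3 CPM in T4D36.5 and 21.4 CPM in T4D25. In G1_36.5 against V36.5, 7 fell and 2 rose, against 34.5% and 34.1% of all genes, bdf2 falling by 1.05 and lem2 by 1.01, and the smallest fall, that of ddb1 (-0.15), was lost in 7 alternatives.

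Of 5 genes listed as silenced by heterochromatin, 4 were tested. The meiotic genes mei4 and ssm4, which lie in facultative heterochromatin in dividing cells, and mcp7 rose in T0-N against V25 by 2.28, 1.90 and 1.09. These were 3 of the 4 tested, where 44.8% of all genes were called higher. In T4D36.5 against T4D25, mcp7 rose by 2.92, with medians of 789 CPM in T4D36.5 and 103 CPM in T4D25, and mei4 by 2.79, with 316 and 41.6 CPM, while ssm4 fell by 0.34, a call lost without replicate 2 (adjusted p = 0.160). Levels of these meiotic genes are not a measure of silencing, and the part of heterochromatin in their changes was not tested. The subtelomeric helicase genes tlh1 and tlh2 are near-identical copies, so their counts are uncertain and no fold is given. tlh2 was not called in T0-N against V25. Its medians were lower in T0-N, at 0.098 CPM, than in V25, at 2.96 CPM with at most 67 counts in a library. In T4D36.5 and T4D25 tlh2 had medians of 1.19 and 0 CPM, with at most 14 counts in a T4D36.5 library. The level was near the floor of 3 counts, which was 0.650 to 2.56 CPM in T4D36.5.

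The genes most like each member were sought by Pearson's r of log2 CPM over the 24 means of strain and growth condition, among 6058 genes. These are descriptions over points that share libraries, strains and depth. srp72 (0.972) and tif6 (0.968) were most like swi6, dbp8 (0.953) and rrp3 (0.950) like chp1, and SPBP8B7.31 (0.948) and pop5 (0.944) like chp2. For clr3 they were abo1 (0.896) and ath1 (0.893), and for clr4 sua5 (0.847) and elg1 (0.825). btb3 (0.957) and SPAC3A12.08 (0.941) were most like ago1. spo7 came among the first for both dcr1 (0.943, with vps36 at 0.932) and rdp1 (0.919, with cid12 at 0.920). tas3 was most like res1 (0.851) and chk1 (0.850), and epe1 most like omh5 (0.909) and cdk11 (0.907). Between members, dcr1 and rdp1 had the highest r, 0.908, and swi6 and ago1 the lowest, -0.651.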

How the data were processed

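RNA was depleted of ribosomal RNA and sequenced from stranded libraries. Per the labels, the authors used bcl2fastq, STAR 2.7.10a on ASM294v2 and featureCounts 1.5.1, and the deposited counts are whole numbers of reads or fragments per gene, not normalized. They cover 7014 genes and 92 ERCC spike-in RNAs, which were left out except in an alternative that kept them. Libraries had 1173880 to 7664476 counts on genes, which sets the precision of low genes.

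Counts were filtered with filterByExpr, scaled by TMM and fitted with edgeR 4.0.16 (R 4.3.3), with 1 mean per strain and growth condition, quasi-likelihood F tests and p adjusted by Benjamini-Hochberg over all genes at 0.05, which is the test behind each adjusted p unless another is named. Growth contrasts used the 60 libraries of strains 86, 92, 93 and 97, G1_36.5 against V36.5 used 24 libraries, and strains were tested within the 12 libraries of a condition. The standard error of a log2 fold change is its size over the square root of F and adds no evidence beyond the p. CPM used TMM over the 72 libraries, and log2 CPM a prior count of 2. The T4D36.5 and T4D25 libraries come from the T0-N cultures. The labels call the replicate number a batch. Deviations from the group means correlated at 0.339 on average between libraries of 1 condition with the same number, in 94.4% of 108 pairs above 0.1. Between those with different numbers the average was -0.167. Deviations within a group cancel out by construction, so the negative value largely follows from the first and is no separate evidence.

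Named genes were the 10 members, their antisense RNAs, genes overlapping them, the 2 genes most like each member with a mean log2 CPM of at least 1, and, per list and comparison, at most 3 called genes with the largest changes, beyond which pcu4, raf2, mit1, cid12, dsh1, arb1, ddb1, clr6 and hst2 were named after their values were seen. Members and lists were chosen with earlier results of these data known. Some listed genes are not reported here. Alternatives were the likelihood ratio test, DESeq2 1.42.0, its size factors, no filter, at least 10 counts in every library, spike-in RNAs kept, no ribosomal RNA genes, the replicate number or starved culture as a block, and each replicate left out. The fits were tested on simulated counts, drawn independently for each library with an assumed dispersion and no effect of replicate number. The shares recovered hold for that setting and need not hold for the real libraries. Of 1.5-fold changes, 90% were recovered in T0-N against V25 and 98% in G1_36.5 against V36.5. Tests among strains recovered 36% of 1.5-fold changes in V25 and 36% in T4D36.5, and 92% and 80% of 2-fold ones. Small differences among strains can thus be missed. Tables and figures used version 1.17.8 of data.table, Python 3.11.15, pandas 2.3.3, numpy 2.4.6 and matplotlib 3.10.9.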

Additional observations from a re-analysis of the deposited data

Results flagged for a closer look

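The heat contrasts of quiescent and dividing cells differed by the test of the difference itself, (T4D36.5 minus T4D25) minus (V36.5 minus V25). The log2 difference was 0.40 for swi6, -0.69 for chp2, -0.89 for clr4, -0.98 for ago1, -0.96 for dcr1, -0.83 for rdp1, -0.51 for tas3 and -0.36 for epe1. It was 1.29 for epe1-antisense-1 (adjusted p = 0.00771) and 1.84 for clr3-antisense-1 (adjusted p = 0.00426). clr3-antisense-1 had at most 21 counts in a library. Of the 12 libraries per condition, it was at or below 3 counts in 10 in V25, 8 in V36.5, 8 in T4D25 and 3 in T4D36.5.

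The interaction of strain and growth condition was called for chp1 (adjusted p = 0.0352) and chp2 (adjusted p = 0.000649), against 24.5% of all genes. The call of chp1 was lost when any replicate was left out, and that of chp2 without replicate 2 (0.238).

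Spike-in RNAs, which entered the alternative that kept them and no other fit, had more than 3 counts in 45 of the 72 libraries and 0 counts in 21.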

How the results depend on the processing

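Of the growth changes recomputed under each alternative, 602 kept their direction and side of the threshold, 38 lost the call, 19 gained it and 21 reversed, all for members that were not called. A minimum of 10 counts in every library gave 0.012 for chp1 and 0.0060 for epe1 in V36.5 against V25, 0.011 for clr4 and 0.027 for dcr1 in T0-N against V25, 0.0049 for epe1 in T4D25 against T0-N and 0.028 for rdp1 in T4D36.5 against T4D25, each reversed. Further reversed values of epe1 in T4D25 against T0-N were 0.014 under DESeq2, 0.016 with its size factors and 0.0041 without ribosomal RNA genes. In T4D36.5 against T4D25 rdp1 was at 0.00657 under DESeq2 and 0.00797 with its size factors, and chp1 at -0.0104 with no filter and -0.00074 with spike-in RNAs kept. Without ribosomal RNA genes rdp1 was at -0.026 in T0-N against V25. Leaving out each replicate gave -0.17 to 0.00050 for chp1 in V36.5 against V25, -0.055 to 0.070 for epe1 in T4D25 against T0-N, -0.022 to 0.029 for chp1 in T4D36.5 against T4D25 and -0.023 to 0.18 for chp1 in the difference between both heat contrasts. In T0-N against V25 it gave -0.22 to 0.032 for clr4, -0.18 to 0.033 for dcr1 and -0.0068 to 0.15 for rdp1.

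Counts of members called also moved. Tests among strains rest on 3 libraries a strain. The replicate block gave 4 in V25, 1 in V36.5, 2 in G1_36.5 and 5 in the interaction, and 12, 4, 9, 1 and 14 called pairs in V25, V36.5, G1_36.5, T4D25 and T4D36.5. In the growth contrasts the block changed no call other than those given for T4D36.5 and G1_36.5. DESeq2's size factors gave 1 in V25, 2 in T4D36.5 and 1 in the interaction. The number was 1 in V25 with no filter, 2 in T4D36.5 without ribosomal RNA genes, and 1 in the interaction with at least 10 counts in every library. In V36.5 it was 1 under the likelihood ratio test, and in G1_36.5 it was 2 under DESeq2. In G1_36.5, 3 pairs were called by each of these tools. Leaving out each replicate gave 3 to 7 members in T4D25 against T0-N, 1 in V25, 0 in G1_36.5, 0 to 2 in T4D36.5 and 0 to 3 in the interaction, and 3 to 4 pairs in V25, 0 in G1_36.5 and 0 to 10 in T4D36.5. Leaving out a replicate also removes samples, and the cause of these changes was not tested. Of all genes, 3316 were called in T4D25 against T0-N with all replicates. The number was 2901 without replicate 1, 2068 without replicate 2 and 3369 without replicate 3.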
